A study of Mus musculus with 4 samples.

Results

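Arg1-high myeloid cells of mouse pancreatic tumours were examined: 1746 of the 10535 cell barcodes that passed the quality limits, out of 16890 barcodes in 4 single-cell RNA libraries. A barcode was taken when it held at least 3 unique molecular identifiers (UMIs, 1 per captured transcript) of Arg1 and at least 1 of the myeloid gene Lyz2. It could hold no more than 2 UMIs of Krt8, Krt18 and Krt19 together, the keratins of epithelial cells, and none of the T cell gene Cd3e. Barcodes with at least 1 UMI of each of the interferon-induced genes Rsad2, Ifit2 and Cxcl10 were left out. The quality limits were at least 1000 UMIs, at least 250 genes, at most 20% mitochondrial UMIs and at least 1 UMI of Malat1. The values of these 10 genes chose the cells and are given as a description, without a test.

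The tumours came from KPC46, a mouse pancreatic ductal adenocarcinoma (PDAC) organoid line, and the host strain was B6/129 F1J. Mice received TAK-981 or the vehicle Cremophor, and each of the 4 libraries came from 1 mouse, so the comparison was of 2 TAK-981 mice with 2 vehicle mice. The sources used here give no dose, schedule, age or sex. The whole dissociated tumour was loaded, without a sort for myeloid cells, and dead cells were removed only from samples of low viability.

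Arginase 1, the product of Arg1, splits arginine into ornithine and urea. In tumours, macrophages and immature myeloid cells with high arginase activity lower the arginine that T cells need, and ornithine feeds the synthesis of polyamines and proline. TAK-981 (subasumstat) blocks the enzyme that activates SUMO, a small protein that is attached to lysines of other proteins and that, among much else, restrains the transcription of type I interferon.

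The cells numbered 268 and 361 in TAK-981 replicates 1 and 2, against 734 and 383 in vehicle replicates 1 and 2. Of the 2016 barcodes with at least 3 Arg1 UMIs, 180 were lost to the keratin limit, 53 to the lack of Lyz2, 37 to the interferon rule and 0 to Cd3e. The keratin limit removed 56 of 330 and 86 of 479 such barcodes from the TAK-981 libraries, against 9 of 767 and 29 of 440 from the vehicle libraries. The part of depth in this difference was not tested. The interferon rule removed 5 and 23 cells from the TAK-981 libraries, against 8 and 1 from the vehicle libraries. Just inside the Arg1 threshold, 19 and 25 cells of the TAK-981 mice and 70 and 44 of the vehicle mice had exactly 3 Arg1 UMIs. Just outside it, 41 and 23 cells of the TAK-981 mice and 70 and 48 of the vehicle mice passed the other conditions with 2.

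Depth differed between the groups. The median cell held 10176.5 and 9031 UMIs in the TAK-981 libraries, against 3927 and 3797 in the vehicle libraries. Median mitochondrial shares were 6.81% and 5.73% under TAK-981, against 2.68% and 2.53% under vehicle. Only 1 cell barcode occurred in more than one library among these cells, in TAK-981 replicate 2 and vehicle replicate 1. The counts of replicate libraries differed by more than sampling noise, with a chi-square per degree of freedom of 15.4 between the TAK-981 libraries and 21.3 between the vehicle libraries.

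Levels below are in CPM, the UMIs of a gene summed over the Arg1-high cells of a library and scaled to that library's total, corrected by the trimmed mean of M values (TMM). A summed level cannot separate a larger share of expressing cells from more transcripts per cell. The comparison group was the other cells that met the same conditions with fewer than 3 Arg1 UMIs, 1619 in all (280 and 226 under TAK-981, 739 and 374 under vehicle), here called other Lyz2+ cells. Of these, 957 held at least 3 UMIs of the complement genes C1qa, C1qb and C1qc together, a mark of tissue macrophages.

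Arg1 itself (ENSMUSG00000019987, chromosome 10, 24915221 to 24927484, minus strand, mm10) stood at 1559 and 3054 CPM in TAK-981 mice, against 4027 and 4575 CPM in vehicle mice. Both TAK-981 libraries were below both vehicle libraries. The median cell held 12 and 19 Arg1 UMIs under TAK-981, against 11 and 10 under vehicle, and the highest cell held 367 UMIs, in TAK-981 replicate 2. Because the threshold counted UMIs, a deeper cell entered at a lower relative level. At 3 to 5 Arg1 UMIs the summed level was 376 and 435 CPM under TAK-981, against 1238 and 1200 CPM under vehicle. The lower relative Arg1 level was therefore tied to depth by construction, and no change in Arg1 is read from it. In other Lyz2+ cells Arg1 stood at 52.2 and 48.3 CPM under TAK-981 and at 126 and 167 CPM under vehicle.

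The 6 markers of the label did not behave alike. Slc7a2, which encodes the arginine importer CAT2, was at 43.9 and 95.7 CPM under TAK-981 and 161 and 68.3 CPM under vehicle. Other Lyz2+ cells held 7.89 and 29.1 CPM of it under TAK-981 and 21.0 and 7.30 CPM under vehicle, below the Arg1-high cells in every library. Nos2, the inducible nitric oxide synthase that competes for arginine, was low: 5.67 and 29.7 CPM under TAK-981, and 17.3 and 37.7 CPM under vehicle. Hmox1, haem oxygenase 1, reached 188 and 387 CPM under TAK-981, and 302 and 1394 CPM under vehicle, where replicate 2 stood apart. Other Lyz2+ cells held 0.376 and 3.29 CPM of Nos2 under TAK-981 and 0.500 and 1.83 CPM under vehicle. Their Hmox1 was at 116 and 136 CPM under TAK-981 and 135 and 384 CPM under vehicle. Nos2 and Hmox1 were thus higher in Arg1-high cells in every library.

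Mmp12, the macrophage elastase, was at 205 and 846 CPM in Arg1-high cells under TAK-981 and 1671 and 1214 CPM under vehicle. Other Lyz2+ cells held 231 and 332 CPM of Mmp12 under TAK-981 and 583 and 249 CPM under vehicle, so in TAK-981 replicate 1 the Arg1-high cells were the lower class. Saa3, an acute-phase serum amyloid, gave 107 and 151 CPM in Arg1-high cells under TAK-981, and 127 and 561 CPM under vehicle. Other Lyz2+ cells held 154 and 272 CPM of Saa3 under TAK-981, and 155 and 173 CPM under vehicle. Against other Lyz2+ cells Saa3 was thus higher in Arg1-high cells in vehicle replicate 2 alone. The C1q cells among them held 31.8 and 99.4 CPM of Saa3 under TAK-981, and 145 and 114 CPM under vehicle. Against those C1q cells Saa3 was higher in Arg1-high cells in every library but vehicle replicate 1.

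**Figure D1:**
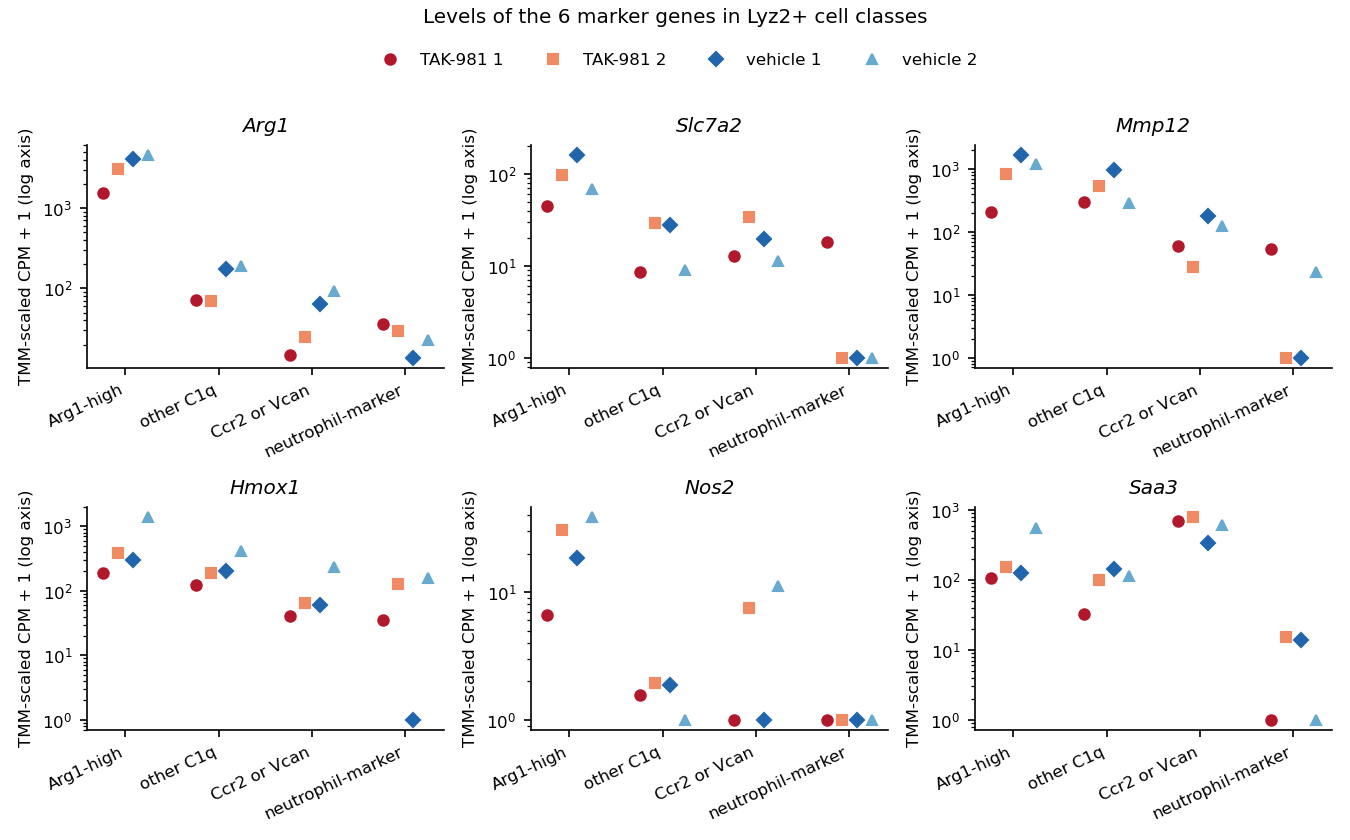
Levels of the 6 markers in TMM-scaled CPM plus 1 (log axis) in Arg1-high cells, other C1q cells, Ccr2 or Vcan cells and neutrophil-marker cells, 1 point per library. Slc7a2, Hmox1 and Nos2 are highest in Arg1-high cells in every library, as is Arg1, which the rule fixed. Saa3 reaches 690 and 798 CPM under TAK-981 and 336 and 614 CPM under vehicle in Ccr2 or Vcan cells.

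Shares of cells with a UMI were compared after each cell was thinned to 1000 UMIs. Arg1 was then found in 75.0% and 80.9% of the Arg1-high cells under TAK-981, against 90.6% and 91.4% under vehicle. These cells were gated at full depth before they were thinned, so the lower shares under TAK-981 are tied to depth by construction. No change in Arg1 is read from them. The background is given by epithelial cells (at least 10 keratin UMIs, no Ptprc), in which 1.17% and 0.917% held an Arg1 UMI under TAK-981, against 0.703% and 0.899% under vehicle. At full depth the same epithelial rule left 1.11% of cells with at least 3 Arg1 UMIs under TAK-981 and 0.520% under vehicle, as means of 2 libraries. Spp1, osteopontin, was found in 60.4% and 73.7% of the thinned Arg1-high cells under TAK-981, against 57.9% and 69.2% under vehicle, and at full depth in a mean of 92.2% under TAK-981 and 79.7% under vehicle. Thinned other Lyz2+ cells carried it in 42.9% and 41.2% under TAK-981, against 19.2% and 41.2% under vehicle, a smaller share in every library. Epithelial cells carried it in 84.9% and 82.9% under TAK-981, against 85.0% and 50.03% under vehicle, and the part of free RNA in the Spp1 shares was not tested.

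Most Arg1-high cells carried macrophage transcripts. At least 3 C1q UMIs were present in 95.9% and 89.8% of them under TAK-981, against 77.4% and 86.9% under vehicle. After thinning the means were 87.0% ± 8.31 under TAK-981 and 70.3% ± 12.9 under vehicle (SD, n = 2 each, exact two-sided permutation p = 0.33, the smallest that 2 against 2 allows). All 11 macrophage markers on the list were detected in every library, with summed levels of 26551 and 21221 CPM under TAK-981 and 11339 and 24153 CPM under vehicle. Of the monocyte markers, Ccr2, the receptor that brings monocytes into tissue, was at 328 and 183 CPM under TAK-981 and 589 and 361 CPM under vehicle. Other Lyz2+ cells held 282 and 261 CPM of Ccr2 under TAK-981 and 657 and 352 CPM under vehicle. Of 7 monocyte-list genes compared with other Lyz2+ cells, 1 was higher and 4 were lower in all 4 libraries. At full depth, at least 2 UMIs of Ccr2 and Vcan together were in a mean of 41.1% (TAK-981) and 45.5% (vehicle) of cells. After thinning these means were 6.97% and 11.9%, against 8.89% and 15.0% in other Lyz2+ cells. At least 3 UMIs of the neutrophil genes S100a8 and S100a9 were present in 2.99% and 4.43% of cells under TAK-981, against 1.36% and 4.70% under vehicle. T or NK cell markers summed to at most 7.13 CPM and dendritic markers to at most 30.0 CPM in any library. Fibroblast and acinar markers reached higher sums in some libraries, given with the TAK-981 comparison.

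Transcripts of the cell cycle genes Mki67 and Top2a were compared with those in other Lyz2+ cells. After thinning, a UMI of either was present in 13.1% and 7.48% of Arg1-high cells under TAK-981, against 6.68% and 7.83% under vehicle. At full depth the shares were 36.9% and 25.5% under TAK-981, against 16.3% and 15.7% under vehicle. Thinned other Lyz2+ cells held such a UMI in 9.64% and 10.2% under TAK-981, against 7.58% and 9.09% under vehicle, which was above the Arg1-high cells in all libraries but TAK-981 replicate 1. No cycling is read from these shares. Of the 18 cell cycle genes tested, 0 were called by edgeR or DESeq2 and 1 had an unadjusted p under 0.05.

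What else Arg1-high cells carried was read from the ratio to other Lyz2+ cells in each library. These ratios come from cells chosen by their Arg1 count and are a description, with no test. Among 8092 genes, 18.5% were higher in Arg1-high cells in all 4 libraries and 12.1% were lower in all 4. The 15 genes with the most stable excess, ranked by the smallest log2 ratio over the 4 libraries, are given with what they encode.

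Ppbp and Pf4, chemokines of platelet granules, ranked first and 4th, with Slc7a2 and F7 between them. Ppbp stood at 19.4 and 36.2 CPM in Arg1-high cells under TAK-981 and at 56.1 and 174 CPM under vehicle. The Ppbp level in other Lyz2+ cells was 1.13 and 1.65 CPM under TAK-981 and 6.99 and 9.13 CPM under vehicle. Pf4 gave 633 and 1872 CPM in Arg1-high cells under TAK-981 and 1480 and 4242 CPM under vehicle. Gp9, a subunit of the platelet adhesion receptor, was at 0 in the Arg1-high cells of all 4 libraries.

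F7, which encodes coagulation factor VII, was at 24.5 and 47.4 CPM in Arg1-high cells under TAK-981 and 78.2 and 101 CPM under vehicle. Other Lyz2+ cells held 5.64 and 11.5 CPM of F7 under TAK-981 and 24.5 and 19.2 CPM under vehicle. Ccl6, a myeloid chemokine, gave 2376 and 5044 CPM in Arg1-high cells under TAK-981 and 3801 and 2939 CPM under vehicle. The other cells gave 760 and 1317 CPM under TAK-981 and 1545 and 1333 CPM under vehicle. Both genes were higher in Arg1-high cells in each mouse. Adam8, a membrane metalloprotease of leukocytes, Rnase2a, Fam20c and the lipid carriers Apoc2 and Fabp5 were in the same set of 15.

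Hilpda and Bnip3 are known to be induced by low oxygen. Hilpda, which coats lipid droplets and inhibits their breakdown, was at 424 and 974 CPM in Arg1-high cells under TAK-981, and at 751 and 620 CPM under vehicle. In other Lyz2+ cells Hilpda was at 153 and 422 CPM under TAK-981, and at 270 and 234 CPM under vehicle. Bnip3, a mitophagy receptor, stood at 89.0 and 188 CPM in Arg1-high cells under TAK-981 and 197 and 253 CPM under vehicle. Its log2 ratios to other Lyz2+ cells were 0.97 and 1.55 under TAK-981, and 1.93 and 1.58 under vehicle. Vegfa, the angiogenic growth factor, and Nt5e, the ecto-enzyme CD73 that makes adenosine, were also among the 15. Over the whole hypoxia and glycolysis list, 21 of 27 genes were higher in Arg1-high cells in all 4 libraries, with a median log2 ratio of 0.90, against 0.05 over all 8092 genes.

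**Figure D2:**
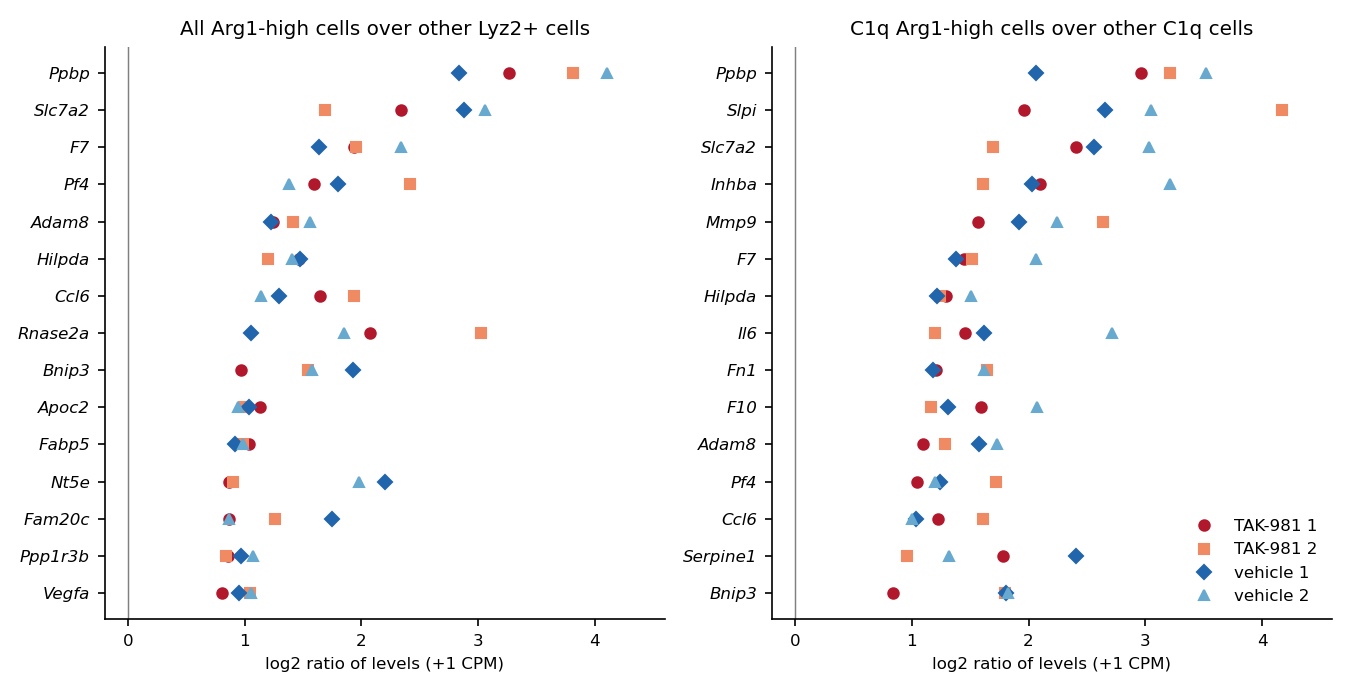
Log2 ratio of levels (pseudocount 1 CPM) in Arg1-high cells over other Lyz2+ cells (left) and in C1q-positive Arg1-high cells over other C1q cells (right), 1 point per library, for the 15 genes of each comparison. Every point lies above 0, which is how the genes were chosen.

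The C1q-positive cells were also set against other C1q cells, so that both sides held C1q transcripts. Transcripts of other cell types could still differ. Sparc, on the fibroblast list, was at 180 and 8.11 CPM in C1q-positive Arg1-high cells under TAK-981 and 8.15 and 8.74 CPM under vehicle. In other C1q cells Sparc was at 381 and 181 CPM under TAK-981 and 75.4 and 72.3 CPM under vehicle. Of the 15 genes ranked in this way, 8 were also in the first set, among them Ppbp, Slc7a2, F7, Hilpda, Bnip3 and Ccl6. Genes that entered were Slpi, an inhibitor of neutrophil elastase, Inhba, the activin A subunit, and Fn1, fibronectin. Fn1 stood at 1112 and 1430 CPM in C1q-positive Arg1-high cells under TAK-981 and 3329 and 2548 CPM under vehicle. In other C1q cells Fn1 stood at 481 and 458 CPM under TAK-981 and 1467 and 831 CPM under vehicle. The 10 lowest genes were led by Sparc, Tmem176a, Tmem176b and Slamf9, and they included H2-Eb1 and H2-Ab1, genes of antigen presentation. H2-Ab1, an MHC class II chain, was at 2700 and 1545 CPM in C1q-positive Arg1-high cells under TAK-981 and at 2855 and 1286 CPM under vehicle. Other C1q cells held 4596 and 4174 CPM of H2-Ab1 under TAK-981 and 4332 and 1753 CPM under vehicle. Against all other Lyz2+ cells, 7 of 8 MHC class II genes were lower in all 4 libraries, with a median log2 ratio of -0.51.

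Smaller shares of other groups were higher in all 4 libraries: 10 of 21 haem, iron and NRF2 genes, 9 of 18 matrix proteases and inhibitors, 10 of 24 inflammatory genes, 8 of 19 genes of arginine and polyamine metabolism and 7 of 18 genes of lipid-associated macrophages. Interferon-stimulated genes outside the rule ran the other way, with 19 of 46 lower in all 4 libraries and a median log2 ratio of -0.44; cells with Rsad2, Ifit2 and Cxcl10 had been removed from both classes.

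Within the class, the levels of these genes were described over the Arg1 count. Cells were divided into those with 3 to 5, 6 to 14, and 15 or more Arg1 UMIs. Hilpda was at 277 and 437 CPM in the lowest stratum under TAK-981, and at 459 and 313 CPM under vehicle. In the middle stratum it was at 350 and 722 CPM under TAK-981, and at 647 and 611 CPM under vehicle. In the highest it was at 529 and 1155 CPM under TAK-981, and at 994 and 745 CPM under vehicle. Hilpda, Adam8, Bnip3 and Ccl6 rose with each stratum in all 4 mice. Of the 22 genes in the 2 sets of 15 joined, 9 did so in all 4 libraries and a further 10 in 3 libraries. These genes were chosen in the same cells for higher levels at more Arg1 UMIs, which favours such a rise. The share of all genes that rose with each stratum was not counted. Strata of UMIs are also strata of depth, and the part of depth in this order was not tested.

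Promoter sequence was set beside the hypoxia group because the core site of hypoxia-inducible factors, ACGTG, is short and known. RefSeq windows on GRCm38.p6 cover 250 bases before to 50 after a gene's start, and both strands were searched. ACGTG was found in 19 of 34 windows of the hypoxia and glycolysis genes (55.9%), which belong to 25 genes, against 19.6% of all 32851 windows. It was also found in the windows of 6 of the 12 genes with a window among the 15 led by Ppbp, against 21.8% of all 27025 genes with a window. The excess in the hypoxia windows was not confined to ACGTG. The core of the metal response element, TGCACNC or TGCGCNC, was found in 18 of the 34 (52.9%), against 25.7% of all windows. A match is a description of the letters and not of binding. Bnip3 and Ldha, which encodes lactate dehydrogenase A, are shown with the matches in capitals. CACGTG reads the same on both strands and holds a match on each. The windows lie at chr7:138909457-138909756 (minus strand) for Bnip3 and chr7:46845554-46845853 (plus strand), 1 of the 2 windows listed for Ldha.
Bnip3: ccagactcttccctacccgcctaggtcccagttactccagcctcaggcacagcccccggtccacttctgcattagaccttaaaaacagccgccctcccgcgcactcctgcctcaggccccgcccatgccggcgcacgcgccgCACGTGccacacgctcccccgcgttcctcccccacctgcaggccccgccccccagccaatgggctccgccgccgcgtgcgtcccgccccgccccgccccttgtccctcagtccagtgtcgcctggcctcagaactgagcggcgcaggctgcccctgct
Ldha: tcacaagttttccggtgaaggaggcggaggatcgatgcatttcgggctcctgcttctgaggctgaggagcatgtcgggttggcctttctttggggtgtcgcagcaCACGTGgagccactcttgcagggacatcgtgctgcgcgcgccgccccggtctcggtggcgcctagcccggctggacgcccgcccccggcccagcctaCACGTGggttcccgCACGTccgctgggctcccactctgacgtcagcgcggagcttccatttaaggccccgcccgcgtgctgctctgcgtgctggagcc

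The share of Arg1-high cells overlapped between the groups at full depth, and its direction changed with the setting. They made up 48.9% and 61.5% of all Lyz2+ cells of the gate under TAK-981, against 49.8% and 50.6% under vehicle. The means were 55.2% ± 8.91 and 50.2% ± 0.540 (SD, n = 2 each), a difference of 4.99 percentage points (two-sided exact permutation p = 1). After thinning to 1000 UMIs the shares were 15.5% and 29.3% under TAK-981, against 26.5% and 28.2% under vehicle, and the difference was -4.97 points. After thinning to 3000 UMIs, which left out shallower cells and kept 471 and 555 Lyz2+ cells under TAK-981 and 775 and 442 under vehicle, the difference was -12.5 points (exact permutation p = 0.33). With at most 10% mitochondrial UMIs the shares were 52.97% and 62.8% under TAK-981, against 50.2% and 50.9% under vehicle, a difference of 7.32 points (exact permutation p = 0.33). Without TAK-981 replicate 2 the full-depth difference was -1.31 points.

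**Figure D3:**
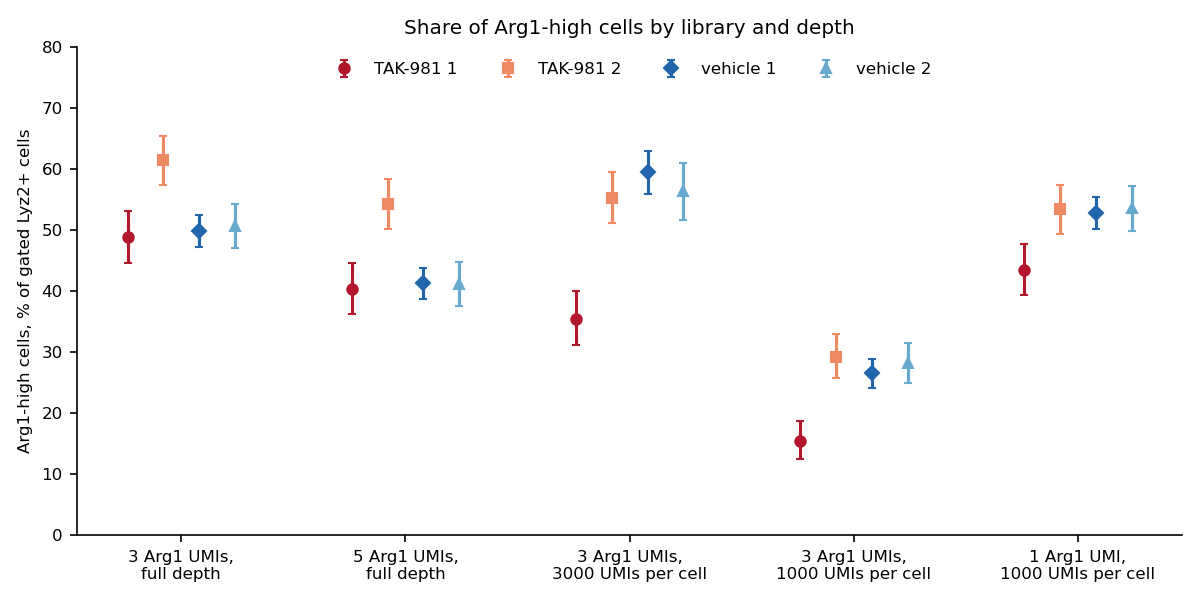
Arg1-high cells as a percentage of gated Lyz2+ cells in each library, at 5 settings of depth and Arg1 threshold, with 95% Clopper-Pearson intervals that cover counting error only. TAK-981 replicate 1 is the lowest library at every thinned setting, and TAK-981 replicate 2 is the highest at full depth.

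Differences between TAK-981 and vehicle within Arg1-high cells were tested with edgeR's quasi-likelihood test on the summed counts and Benjamini-Hochberg adjustment over 9859 genes. At an adjusted p under 0.05, 21 genes (0.213%) were higher and 99 (1.00%) were lower under TAK-981, together 1.22%, and 13.1% had an unadjusted p under 0.05. DESeq2 called 40 higher and 180 lower. The counts moved with the library left out: without TAK-981 replicate 1, 3 genes were called higher and 1 lower; without vehicle replicate 2, 7 higher and 11 lower; without vehicle replicate 1, 17 higher and 18 lower; without TAK-981 replicate 2, 91 higher and 146 lower. Of the 120 genes, 21 were called in none of these 4 fits and 2 in all 4 (Hist1h4d and the trypsinogen-like 2210010C04Rik).

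Of the 11 macrophage markers, 1 rose under TAK-981, Ms4a7, against 0.213% of all genes tested. A positive log2 fold change was found for 8 of the 11, against 50.8% of all genes. The list median was 0.16, and it was -0.17 to 0.78 with 1 library left out. Fcrls and P2rx7, described next, are not on that list. Fcrls, an Fc receptor-like gene of resident macrophages and microglia, stood at 235 and 145 CPM under TAK-981, against 61.6 and 69.0 CPM under vehicle (log2 fold change 1.55 ± 0.30 SE, edgeR adjusted p = 0.0476). Ms4a7, a membrane protein of mature macrophages, stood at 314 and 289 CPM under TAK-981, against 105 and 127 CPM under vehicle (1.39 ± 0.25, edgeR adjusted p = 0.0372). P2rx7, the ATP-gated channel that triggers inflammasome activation, gave 94.6 and 108 CPM under TAK-981, against 44.6 and 35.6 CPM under vehicle (1.32 ± 0.23, edgeR adjusted p = 0.0366). For each of the 3 genes both TAK-981 libraries lay above both vehicle libraries. Leaving out 1 library at a time kept Fcrls and Ms4a7 past the threshold only without TAK-981 replicate 2, and P2rx7 in no case, with edgeR adjusted p up to 0.266 for Fcrls, 0.181 for Ms4a7 and 0.201 for P2rx7.

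Cp, which encodes the copper-bound ferroxidase ceruloplasmin, rose to 68.4 and 52.5 CPM under TAK-981, against 14.4 and 12.1 CPM under vehicle (log2 fold change 2.17 ± 0.28 SE, edgeR adjusted p = 0.0224). Atp1b3, a subunit of the sodium pump, rose to 696 and 658 CPM under TAK-981, against 267 and 225 CPM under vehicle (1.46 ± 0.25, edgeR adjusted p = 0.0354). Sdf2l1, a chaperone partner of the endoplasmic reticulum, rose to 147 and 146 CPM under TAK-981, against 60.9 and 60.4 CPM under vehicle (1.27 ± 0.22, edgeR adjusted p = 0.0348). The replicates of these 3 genes lay close together in both groups. Cp and Atp1b3 stayed past the threshold without TAK-981 replicate 2 and in no other of the 4 fits, and Sdf2l1 in none. The other genes of the unfolded protein response list were not called: 14 of 18 had a positive log2 fold change, and Calr, the calcium-binding chaperone calreticulin, stood at 967 and 1074 CPM under TAK-981, against 570 and 593 CPM under vehicle (0.81 ± 0.25, edgeR adjusted p = 0.209).

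Another 9 of the 21 genes encode digestive enzymes or Reg proteins of the exocrine pancreas. Ctrb1, chymotrypsinogen, gave 97.0 and 130 CPM (325 and 464 UMIs) under TAK-981, against 5.53 and 0 CPM (15 and 0 UMIs) under vehicle. The 12 acinar markers summed to 381 and 443 CPM in Arg1-high cells under TAK-981, against 39.6 and 28.8 CPM under vehicle, and 11 of them were at 0 in vehicle replicate 2. The same sum in other Lyz2+ cells was 1156 and 348 CPM under TAK-981, against 1127 and 25.9 CPM under vehicle. The part of free RNA from acinar cells in these 9 calls was not tested. Fibroblast markers moved with 1 library, at 995 CPM in TAK-981 replicate 1, 30.5 CPM in TAK-981 replicate 2, and 22.0 and 32.0 CPM in the vehicle libraries.

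Interferon-stimulated genes outside the rule tended to be higher under TAK-981. Of 48 tested, 45 had a positive log2 fold change, with a median of 0.98, against 50.8% of all genes and a median of 0.01. For 33 of them both TAK-981 libraries lay above both vehicle libraries, against 23.4% of all genes. In other Lyz2+ cells 36 of 46 were positive, with a median of 0.57, and 13 had TAK-981 above vehicle without overlap. In Arg1-high cells 17 of the 48 had an unadjusted p under 0.05, against 13.1% of all genes, and DESeq2 called 4 (Ifit3, Bst2, Phf11b and Gbp2). With the gate after thinning, edgeR called 7 of the list at 3000 UMIs and 0 at 1000 UMIs. It called 3 when only cells with 1000 to 5000 Arg1 CPM were summed. Ifit3, an interferon-induced protein with tetratricopeptide repeats, was the 1 gene of the list that passed edgeR's test in the main fit. It had 16.1 and 25.5 CPM (54 and 91 UMIs) under TAK-981, against 3.69 and 0.711 CPM (10 and 1 UMIs) under vehicle (log2 fold change 3.00 ± 0.53 SE, edgeR adjusted p = 0.0383). Each fit that left out a library lost the call (edgeR adjusted p of 0.0571 to 0.130), as did cells thinned to 1000 UMIs before the gate (edgeR adjusted p = 0.093) and keeping the cells of the interferon rule (edgeR adjusted p = 0.215). Its close copy Ifit3b gave 5.67 and 5.89 CPM under TAK-981, against 0.369 and 0 CPM under vehicle, and reads shared by the copies were handled by the authors' counting.

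Irf7, the transcription factor that amplifies interferon production, was at 105 and 159 CPM under TAK-981, against 57.2 and 10.7 CPM under vehicle (1.89 ± 0.75, edgeR adjusted p = 0.419). Isg15, a ubiquitin-like protein, was at 95.8 and 123 CPM under TAK-981, against 83.4 and 17.8 CPM under vehicle (1.07 ± 0.70, edgeR adjusted p = 0.613). In both genes vehicle replicate 2 was far below vehicle replicate 1. The list median was 0.56 without vehicle replicate 2 and 2.05 without vehicle replicate 1. With the cells of the interferon rule kept it was 1.19, and 2 genes of the list were called.

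The core of the interferon-stimulated response element, GAAA followed by any 2 bases and GAAA again, was found on either strand in 29 of 44 RefSeq windows of the interferon-stimulated genes (65.9%), which belong to 39 genes, against 3.44% of all windows. The window of Ifit3 (GRCm38.p6, chr19:34583279-34583578, plus strand) is shown because this gene passed the test. Its 2 matches lie on the other strand and are in capitals.
Ifit3: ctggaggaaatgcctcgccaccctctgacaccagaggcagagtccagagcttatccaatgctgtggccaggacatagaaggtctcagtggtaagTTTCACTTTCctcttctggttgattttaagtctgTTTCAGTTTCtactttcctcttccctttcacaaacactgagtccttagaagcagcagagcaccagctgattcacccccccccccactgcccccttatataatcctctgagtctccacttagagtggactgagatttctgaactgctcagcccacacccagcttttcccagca

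MHC class I and peptide-loading genes were also mostly higher. Of 17 tested, 16 had a positive log2 fold change, against 50.8% of all genes, and the median was 0.96. For 12, both TAK-981 libraries lay above both vehicle libraries, against 23.4% of all genes. By edgeR 0 of the 17 passed the adjusted test, and 10 had an unadjusted p under 0.05, against 13.1% of all genes. DESeq2 called 3 (H2-D1, H2-T23 and H2-Q4). In other Lyz2+ cells 17 of 17 were positive, with a median of 0.52, and 10 had TAK-981 above vehicle without overlap. There 1 of the 17 was called higher, against 2.60% of all genes. H2-D1, a classical class I heavy chain, stood at 1589 and 1486 CPM under TAK-981, against 749 and 699 CPM under vehicle (1.09 ± 0.26, edgeR adjusted p = 0.107). H2-T23, which encodes the Qa-1 ligand of NKG2A, stood at 143 and 146 CPM under TAK-981, against 66.0 and 33.4 CPM under vehicle (1.52 ± 0.31, edgeR adjusted p = 0.0688). H2-T22, a class Ib gene that is not on the list, rose to 82.7 and 92.9 CPM under TAK-981, against 30.2 and 22.8 CPM under vehicle (1.71 ± 0.25, edgeR adjusted p = 0.0224), and kept its call without TAK-981 replicate 2 only. Class I genes are near copies of each other, so counts of single members are uncertain. Of the 8 MHC class II genes, 2 had a positive log2 fold change, and 0 were called by edgeR or DESeq2 or had an unadjusted p under 0.05.

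The SUMO pathway itself gave 0 calls in 21 genes by edgeR or DESeq2, with 6 at an unadjusted p under 0.05, against 13.1% of all genes. The modifiers stood higher under TAK-981 in both libraries: Sumo2 was at 367 and 320 CPM under TAK-981, against 209 and 207 CPM under vehicle (0.73 ± 0.24, edgeR adjusted p = 0.250). Sumo3 was at 120 and 110 CPM under TAK-981, against 61.2 and 54.8 CPM under vehicle (0.99 ± 0.22, edgeR adjusted p = 0.094). Uba2, the catalytic subunit of the enzyme that TAK-981 targets, was at 68.7 and 55.0 CPM under TAK-981, against 42.8 and 39.1 CPM under vehicle (0.59 ± 0.25, edgeR adjusted p = 0.358).

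**Figure D4:**
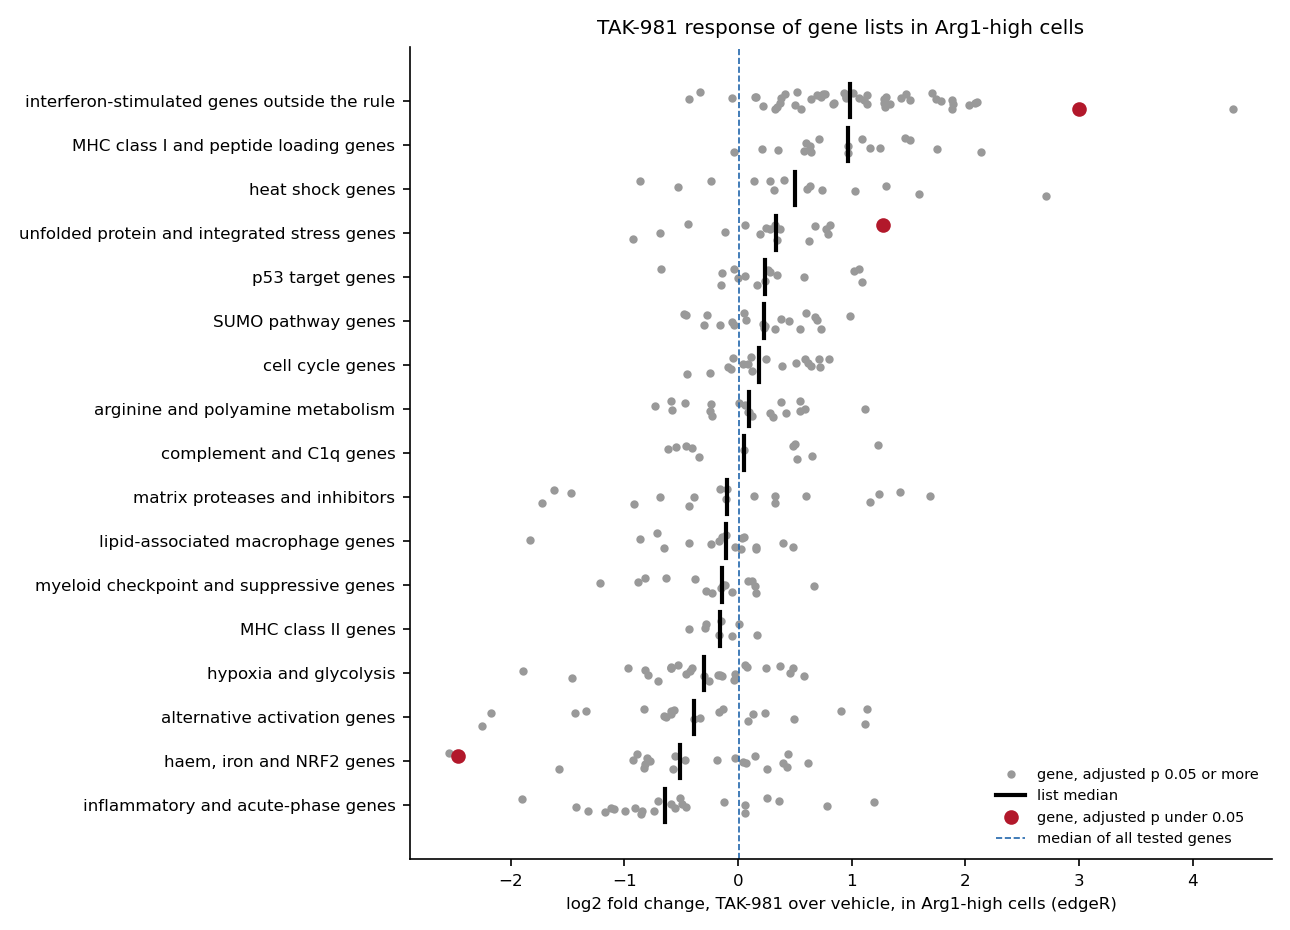
Log2 fold change, TAK-981 over vehicle, of every tested gene of 17 gene lists in Arg1-high cells. Each point is a gene, black bars are list medians, the dashed line is the median of all genes tested, and red points passed an adjusted p of 0.05 (Ifit3, Sdf2l1 and Mt1).

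Of 20 genes of arginine and polyamine metabolism, 0 were called by edgeR or DESeq2. An unadjusted p under 0.05 was found for 5 of the 20, against 13.1% of all genes. Their median log2 fold change was 0.09. Slc7a2 differed by -0.73 ± 0.52 (SE, edgeR adjusted p = 0.630) and Nos2 by -0.59 ± 0.90 (edgeR adjusted p = 0.847). Odc1, ornithine decarboxylase, which opens polyamine synthesis, was at 194 and 373 CPM under TAK-981, against 312 and 144 CPM under vehicle, and the groups overlapped. Sat1, the acetyltransferase that opens polyamine breakdown, was at 523 and 684 CPM under TAK-981, against 397 and 405 CPM under vehicle (0.59 ± 0.26, edgeR adjusted p = 0.378). Oat, which turns ornithine towards proline, was at 70.2 and 65.1 CPM under TAK-981, against 46.8 and 46.2 CPM under vehicle (0.54 ± 0.23, edgeR adjusted p = 0.362). Pycr1, the last enzyme of that route, had 1 UMI in all 4 libraries.

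Hypoxia and glycolysis genes were lower on balance, with 20 of 27 log2 fold changes below 0, a median of -0.30 and 0 edgeR calls. An unadjusted p under 0.05 was found for 4, against 13.1% of all genes, and DESeq2 called 2 (Hk2 and Mif). Hk2, hexokinase 2, was at 64.8 and 88.1 CPM under TAK-981, against 411 and 157 CPM under vehicle (-1.90 ± 0.45, edgeR adjusted p = 0.138). Mif, a cytokine induced by low oxygen, was at 426 and 644 CPM under TAK-981, against 1616 and 1330 CPM under vehicle (-1.46 ± 0.30, edgeR adjusted p = 0.0624). The glycolytic enzymes Ldha, Pgk1 and Tpi1 had log2 fold changes of -0.18, -0.14 and 0.08. The list median was -0.06 without TAK-981 replicate 1, -0.86 without TAK-981 replicate 2, and 0.01 when only cells with 1000 to 5000 Arg1 CPM were summed. Of the hypoxia genes followed over the Arg1 strata, Slc2a1, Ldha, Bnip3 and Mif rose with each stratum in all 4 libraries, Egln3 in 3 and Vegfa in 1.

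Of 24 inflammatory and acute-phase genes edgeR called 0 and DESeq2 called 2 (Ccl7 and Cxcl2). An unadjusted p under 0.05 was found for 7 of the 24, against 13.1% of all genes. Of their log2 fold changes 6 were above 0, with a median of -0.64, which was 0.06 without vehicle replicate 1. Cxcl2, a neutrophil-attracting chemokine, was at 1533 and 2576 CPM under TAK-981, against 6203 and 4062 CPM under vehicle (-1.32 ± 0.35, edgeR adjusted p = 0.135). Ccl7, a monocyte-attracting chemokine, was at 582 and 1045 CPM under TAK-981, against 330 and 375 CPM under vehicle (1.20 ± 0.32, edgeR adjusted p = 0.138). Il1b overlapped between the groups, with 1626 and 2368 CPM under TAK-981 and 3832 and 1650 CPM under vehicle. Saa3 differed by -1.42 ± 0.79 (edgeR adjusted p = 0.549) and Mmp12 by -1.47 ± 0.68 (edgeR adjusted p = 0.459). The lists of matrix, alternative activation, lipid-associated, checkpoint, complement, heat shock, p53 and cell cycle genes held no gene called by edgeR, and between 0 and 5 genes each at an unadjusted p under 0.05. DESeq2 called Mmp19 of the matrix list and Ccl8 and Fn1 of the alternative activation list, and none of the other 6.

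The metallothionein Mt1, which binds zinc and copper, was the called gene of the haem, iron and NRF2 list. It fell to 483 and 961 CPM under TAK-981, against 3345 and 4587 CPM under vehicle (log2 fold change -2.47 ± 0.38 SE, edgeR adjusted p = 0.0262). Mt2, its neighbour and near relative, stood at 49.0 and 169 CPM under TAK-981, against 485 and 776 CPM under vehicle (-2.54 ± 0.64, edgeR adjusted p = 0.206). The ferritin gene Fth1 overlapped between the groups at 15505 and 20348 CPM under TAK-981 and 16969 and 17771 CPM under vehicle. Mt1 kept its call without TAK-981 replicate 2 only, and its edgeR adjusted p was up to 0.156 in the other fits. The window of Mt1 (GRCm38.p6, chr8:94178839-94179138, plus strand) is shown with 3 matches to the core of the metal response element, TGCACNC or TGCGCNC, in capitals. Such a match was found in 25.7% of all windows, on either strand.
Mt1: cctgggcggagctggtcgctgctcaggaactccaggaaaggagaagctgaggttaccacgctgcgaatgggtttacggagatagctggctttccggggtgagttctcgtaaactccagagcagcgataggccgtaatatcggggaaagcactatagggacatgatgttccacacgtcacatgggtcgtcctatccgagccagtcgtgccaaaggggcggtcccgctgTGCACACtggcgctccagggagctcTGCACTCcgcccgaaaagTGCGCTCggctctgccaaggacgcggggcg

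Short transcripts were over-represented among the genes that fell. Of the 99, 39 (39.4%) had a longest transcript under 800 nt, against 2.55% of the genes tested. Ribosomal protein genes made up 18 of the 99, against 94 of the 9859 genes tested. Genes of the respiratory chain made up 27 of the 99, against 97 of the 9859. That group was taken broadly, with ATP synthase genes and the assembly factors Ndufaf8 and Uqcc2. The median longest transcript of the 99 was 953 nt, against 3381 nt over the genes tested. Crip1, a small zinc-binding LIM protein, fell to 188 and 380 CPM under TAK-981, against 1880 and 1992 CPM under vehicle (-2.78 ± 0.36, edgeR adjusted p = 0.0224). S100a4, a calcium-binding protein of motile cells with a longest transcript of 498 nt, fell to 67.5 and 96.0 CPM under TAK-981, against 368 and 483 CPM under vehicle (-2.38 ± 0.29, edgeR adjusted p = 0.0224). Of the 99 genes, 90 were also called lower in other Lyz2+ cells, where 192 genes (1.94%) were lower and 258 (2.60%) higher (4.54% together, and 19.2% at an unadjusted p under 0.05). Of the 21 that rose, 4 were also called higher there. The median cell of both classes held more UMIs in the TAK-981 libraries, and the part of depth, cell size or capture in the fall of short transcripts was not tested. When transcripts under 800 nt were left out, 8 genes were called higher and 47 lower.

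Genes with longer transcripts fell too, and those named here were picked after their values were seen. Lyve1, a hyaluronan receptor of perivascular macrophages, fell to 8.66 and 6.73 CPM under TAK-981, against 29.9 and 45.5 CPM under vehicle (-2.26 ± 0.33, edgeR adjusted p = 0.0224). This call ended without TAK-981 replicate 1 (edgeR adjusted p = 0.117) and without vehicle replicate 2 (edgeR adjusted p = 0.0988). Gpr65, an acid-sensing receptor, fell to 47.5 and 79.4 CPM under TAK-981, against 204 and 176 CPM under vehicle (-1.59 ± 0.28, edgeR adjusted p = 0.0366). Flna, the actin crosslinker filamin A, fell to 104 and 112 CPM under TAK-981, against 253 and 268 CPM under vehicle (-1.27 ± 0.23, edgeR adjusted p = 0.0383). The Gpr65 call held without TAK-981 replicate 2 only and the Flna call in none of the 4 fits (edgeR adjusted p up to 0.225 and 0.263).

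Whether the TAK-981 effect in Arg1-high cells differed from that in other Lyz2+ cells was tested as an interaction in edgeR, with each mouse as its own block. Of 10571 genes, 67 (0.634%) differed at an adjusted p under 0.05: in 38 (0.359%) the log2 fold change was higher in Arg1-high cells and in 29 (0.274%) it was lower. An unadjusted p under 0.05 was found for 8.59%. Against other C1q cells 53 genes differed, 24 of them among the 67, which is 35.8% of the 67 and 45.3% of the 53. Both classes were gated by Arg1 UMIs, so depth could move cells between them. With the gate applied after thinning to 3000 UMIs, 24 genes differed, 14 of them among the 67. After thinning to 1000 UMIs 1 gene differed, and it was not among the 67, although 61 of the 65 genes tested kept their sign. A set of 11 genes was called in the full test, against other C1q cells and with the 3000 UMI gate: Ccl8, Fcna, Gas6, Fcgrt, Retnla, Vcam1, Ms4a7, Stab1 and Fcrls on the higher side, and Mif and Cxcl14 on the lower.

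Ccl8, a chemokine of resident and alternatively activated macrophages, had opposite directions in the 2 classes. In Arg1-high cells it stood at 273 and 365 CPM under TAK-981, against 142 and 152 CPM under vehicle. The other Lyz2+ cells held 151 and 236 CPM under TAK-981, against 406 and 600 CPM under vehicle. Other C1q cells gave 232 and 390 CPM under TAK-981, against 718 and 754 CPM under vehicle. The log2 fold change was 1.12 ± 0.25 (edgeR adjusted p = 0.094) in Arg1-high cells and -1.37 (edgeR adjusted p = 0.0497) in other Lyz2+ cells. The difference of 2.49 ± 0.18 (SE, edgeR adjusted p = 2.13e-07) passed in each fit that left out 1 library, at 2.23 to 2.68. It was 2.23 (edgeR adjusted p = 6.09e-07) with the 3000 UMI gate and 1.39 (edgeR adjusted p = 0.840) with the 1000 UMI gate.

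Other genes with a higher log2 fold change in Arg1-high cells differed in which class carried the difference. Gas6, the bridging ligand of the TAM receptors that recognise dying cells, stood at 149 and 151 CPM in Arg1-high cells under TAK-981, against 34.7 and 74.7 CPM under vehicle. In other Lyz2+ cells it was at 113 and 95.4 CPM under TAK-981, against 76.9 and 150 CPM under vehicle, with overlap. The difference was 1.62 ± 0.19 (edgeR adjusted p = 0.000112), and it missed the threshold without vehicle replicate 2 (edgeR adjusted p = 0.0526). Fcna, ficolin A, a lectin that starts complement, overlapped in Arg1-high cells at 44.8 and 105 CPM under TAK-981, and 44.6 and 93.1 CPM under vehicle. In other Lyz2+ cells it was at 16.5 and 24.1 CPM under TAK-981, against 63.0 and 134 CPM under vehicle, so the difference of 2.32 ± 0.25 (edgeR adjusted p = 2.57e-05) lay in the other cells. Without vehicle replicate 2 it too missed the threshold (edgeR adjusted p = 0.0526).

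Stab1, the scavenger receptor stabilin 1, followed Fcna: Arg1-high cells overlapped at 257 and 206 CPM under TAK-981 and 163 and 231 CPM under vehicle. Other Lyz2+ cells held 136 and 98.7 CPM of Stab1 under TAK-981, against 141 and 305 CPM under vehicle (difference 1.09 ± 0.19, edgeR adjusted p = 0.0153). Fcgrt, the neonatal Fc receptor that recycles IgG, differed by 1.36 ± 0.17 (edgeR adjusted p = 0.000179). Folr2, a folate receptor of resident macrophages, stood at 107 and 159 CPM in Arg1-high cells under TAK-981, against 41.7 and 81.1 CPM under vehicle, and differed by 1.67 ± 0.23 (edgeR adjusted p = 0.000667). These macrophage genes thus shared a sign of difference, but not a pattern of levels. Without vehicle replicate 2 the calls of Stab1, Fcgrt and Folr2 were lost (edgeR adjusted p = 0.435, 0.0704 and 0.207), as were those of Ms4a7 and Fcrls (0.361 and 0.271).

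**Figure D5:**
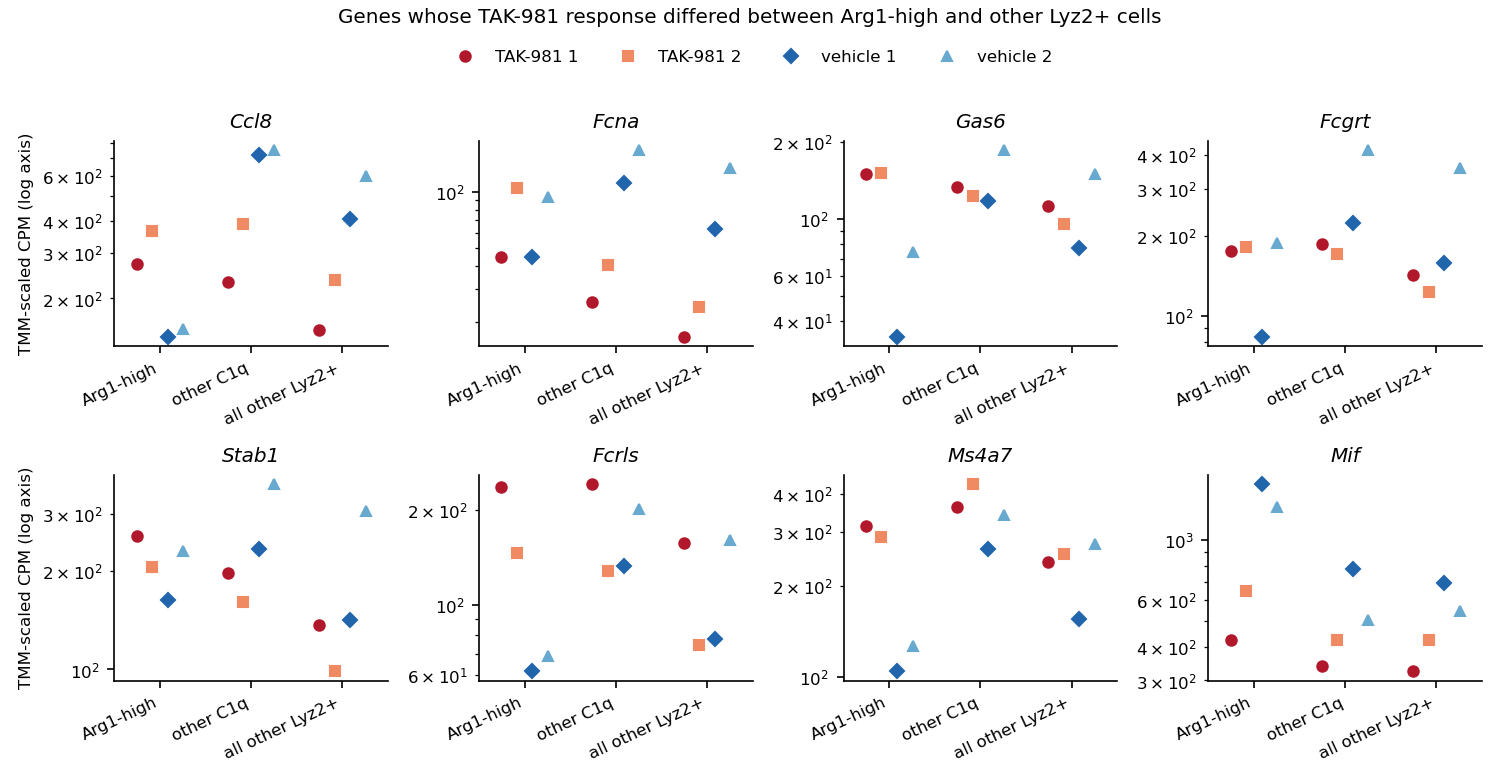
Levels in TMM-scaled CPM (log axis) of 8 genes in Arg1-high cells, other C1q cells and all other Lyz2+ cells, 1 point per library. Ccl8 is higher under TAK-981 in Arg1-high cells and lower under TAK-981 in both other classes.

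On the lower side, Mif differed by -0.75 ± 0.14 (edgeR adjusted p = 0.0113), with 325 and 426 CPM in other Lyz2+ cells under TAK-981, against 691 and 546 CPM under vehicle. Its call was lost without vehicle replicate 1 (edgeR adjusted p = 0.114) and without vehicle replicate 2 (0.224). Nt5e was at 33.7 and 55.3 CPM in Arg1-high cells under TAK-981, against 116 and 89.6 CPM under vehicle. Nt5e in other Lyz2+ cells was at 18.0 and 29.1 CPM under TAK-981, against 24.5 and 21.9 CPM under vehicle. The Nt5e difference was -1.24 ± 0.27 (edgeR adjusted p = 0.0365), and it too was lost without vehicle replicate 1 (edgeR adjusted p = 0.375) or 2 (0.247). The Fn1 difference of -1.04 ± 0.13 (edgeR adjusted p = 0.000367) passed without each library in turn, but against other C1q cells it was -0.11 (edgeR adjusted p = 0.948).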

How the data were processed

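Per the submitters' processing notes the authors used Cell Ranger 6.1.2 and mm10, and the deposited values were UMI counts per gene and barcode for 32285 genes. The members and gene lists were chosen with earlier results of these data known. Counts of Arg1-high cells were summed per mouse (1560140 to 3504855 UMIs) and tested with edgeR 4.0.16 (R 4.3.3, limma 3.58.1; group design, filterByExpr, TMM, quasi-likelihood F test), with Benjamini-Hochberg adjustment over all genes except the 10 of the rule. The interaction was fitted on 8 sums with the library as a block, and shares were compared by exact permutation. DESeq2 1.42.0 was an alternative, and the fits were tested on simulated data. Cells were handled in Python 3.11.15 with numpy 2.4.6, scipy 1.17.1, pandas 2.3.3 and scanpy 1.11.5, whose Scrublet scores marked 11 members that were kept. Gene positions are from GENCODE vM21, matched by ID for 32158 genes. Genes named were the markers, the arginine list, up to 12 called genes a direction with mean log2 CPM of at least 5, up to 4 per list, 15 higher and 10 lower than in other cells, and up to 8 interaction genes a direction. Other genes are named as values or as chosen later. Of the deposited count columns, 0 were left unused.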

Additional observations from a re-analysis of the deposited data

Results flagged for a closer look

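The TAK-981 effect in Arg1-high cells differed from that in other Lyz2+ cells of the same mice for 16 named genes, by edgeR's interaction test. Among genes of resident macrophages the log2 difference was 2.49 for Ccl8, 2.32 for Fcna, 1.62 for Gas6, 1.36 for Fcgrt, 1.67 for Folr2 and 4.22 for Retnla. Retnla rested on few libraries: it was at 0.299 and 13.2 CPM in Arg1-high cells under TAK-981, against 60.5 and 0 CPM under vehicle, and at 278 CPM in other Lyz2+ cells of vehicle replicate 1.

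The pancreatic lipase genes Pnlip and Clps differed by 6.88 and 5.44. Pnlip was at 4.48 and 8.70 CPM in Arg1-high cells under TAK-981, against 0.738 and 0 CPM under vehicle, while other Lyz2+ cells of vehicle replicate 1 held 141 CPM. Camp, a granule protein of immature neutrophils, differed by -7.70. It was at 0 in the Arg1-high cells of both TAK-981 mice, against 105 and 0.711 CPM under vehicle, and at 1559 CPM in other Lyz2+ cells of vehicle replicate 1.

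On the lower side the log2 difference was -1.04 for Fn1, -1.04 for Fam162a and -0.75 for Mif. It was -1.47 for Tpm1, -1.49 for Palld, -3.19 for Pla1a and -1.82 for Lamc1. Tpm1 hardly varied in Arg1-high cells, at 36.4 and 34.2 CPM under TAK-981 and 34.3 and 32.7 CPM under vehicle. Other Lyz2+ cells held 132 and 142 CPM of Tpm1 under TAK-981, against 44.0 and 50.2 CPM under vehicle. Fibroblast markers summed to 7701 and 5293 CPM in those other cells under TAK-981, against 889 and 855 CPM under vehicle. Against other C1q cells alone, all 4 calls were lost: the log2 difference was -0.000106 for Tpm1 (edgeR adjusted p = 1), -0.62 for Palld (edgeR adjusted p = 0.670), -0.60 for Lamc1 (edgeR adjusted p = 0.861) and -1.16 for Pla1a (edgeR adjusted p = 0.785).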

How the results depend on the processing

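Libraries numbered 2 per group, and cells of the TAK-981 mice were deeper. The count of 21 genes higher under TAK-981 was 42 with cells of 1000 to 5000 Arg1 CPM, 43 with the gate after thinning to 3000 UMIs, 40 by DESeq2, 214 without a low-count filter and 8 without transcripts under 800 nt. Leaving out 1 library gave 3 to 91. The 99 lower were 180 by DESeq2, 358 without the filter, 47 without short transcripts and 1 to 146 with 1 library left out. The 67 genes that differed between classes were 23 at 5 Arg1 UMIs, 29 against cells without Arg1 UMIs, 24 after thinning to 3000 UMIs, 1 after thinning to 1000 UMIs, 196 without the filter and 10 to 199 with 1 library left out. With the replicate number as a block, 29 genes were higher and 99 lower. The deviations of same-numbered libraries from their group means had a correlation of -0.083. With 2 libraries per group this is a single value, and whether same-numbered libraries shared a batch cannot be told from it. The share difference of 4.99 points was -4.97 after thinning to 1000 UMIs, -4.76 at 1 thinned Arg1 UMI, -12.5 after thinning to 3000 UMIs, and -1.31 to 11.3 with 1 library left out. Among called genes, the log2 differences of 4 turned round. They were Camp (0.14 with high doublet scores removed, -10.3 to 3.87 with 1 library left out) and Clps (-0.997 to 6.16 with 1 left out). The others were Pnlip (-0.97 after thinning to 1000 UMIs, -0.59 to 7.24 with 1 left out) and Retnla (-1.23 after thinning to 1000 UMIs). The cause was not tested. Of 2950 values of named genes under an alternative, 2726 kept their side of the threshold, 146 lost and 72 gained the call. The other 6, all of called genes, turned round. Of the 131 named genes not called in the main fit, 59 changed sign under an alternative while uncalled. Of the 22 named TAK-981 calls, 1 remained without TAK-981 replicate 1, 17 without TAK-981 replicate 2, 4 without vehicle replicate 1 and 5 without vehicle replicate 2. The gate at 3000 UMIs, the setting of 1 thinned Arg1 UMI, the Arg1 range in CPM and the omission of short transcripts were chosen after seeing the data.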
